A study of Bos taurus with 6 samples.

Results

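The genes described here carry the insulin signal from the cell surface to the nucleus: the insulin receptor (INSR), its docking proteins IRS1 and IRS2, the catalytic and regulatory subunits PIK3CA and PIK3R1 of PI3-kinase, the kinases AKT1 and AKT2, and the transcription factors FOXO1 and FOXO3. They were taken by name, as 9 listed genes, and matched to array probes through the gene symbol of the platform annotation. Of these, 8 genes had a probe, with 9 probes in all, out of 15216 genes with a symbol and 43794 probes on the array. AKT2 had a pair of probes, and no probe carried the symbol IRS2, so IRS2 was not analysed here. A probe entered the test if its spot was brighter than the negative control spots (their mean + 2 SD) in every array at 1 of the times, 0 h or 6 h. That left 5 of the 9 genes (INSR, PIK3CA, AKT1, AKT2 and FOXO1) among 9180 genes tested. Each gene was then represented by its brightest tested probe.

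RNA came from cumulus cells, the somatic cells that enclose the oocyte, of Holstein cows whose ovaries were collected at a slaughterhouse. The 0 h group was stripped mechanically from its complexes before maturation, and the 6 h group had spent 6 h in maturation culture. Complexes with at least 5 layers of cumulus were matured, at most 10 together, at 38.5 °C in TCM-199 to which foetal calf serum (10%), estradiol (1 µg/ml), pyruvate (0.33 mM) and gentamicin had been added, in a gas phase of 5% CO2 and 20% O2. The protocol names neither insulin nor a gonadotropin among the additions, and serum brings its own growth factors. There were 3 biological replicates, each run as a dye swap on 2 arrays, and every array held both times. The number of cows or complexes behind a replicate and the way the 6 h cells were detached are not stated in the labels. The p-values therefore reflect only how far these 3 replicates lay apart, together with the spread of all tested genes that the fit borrows.

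Insulin that binds its receptor switches on a tyrosine kinase, which phosphorylates the IRS proteins. These recruit PI3-kinase to the membrane, where the lipid it makes brings AKT to its activating kinases. Active AKT phosphorylates FOXO factors, which are then bound by 14-3-3 proteins and kept out of the nucleus, so that the genes they drive are transcribed less. Cumulus cells take up glucose and pass metabolites to the oocyte, and insulin is a common addition to maturation media. An array measures transcripts only, and says nothing of phosphorylation or of where a protein lies in the cell.

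The values are log2 ratios of 6 h over 0 h, given as the mean ± SD of 3 replicates, each replicate being the mean of its dye swap. A level is the log2 intensity of 1 probe after scaling the arrays to each other, and levels of different probes are not set against each other. Fewer cells of a type and less RNA per cell cannot be told apart in such samples. A gene is said to have risen or fallen where limma's test of the ratio against 0 gave a Benjamini-Hochberg adjusted p under 0.05 over all tested genes. By that rule 3235 of the 9180 genes differed (35.2%), 1582 of them higher at 6 h (17.2%) and 1653 lower (18.0%). Without replicate 1 the count was 3211, without replicate 2 it was 1679, and without replicate 3 it was 2005. Counts for the lists below without a replicate are to be read beside these. The median log2 ratio over all tested genes was -0.02, the median absolute log2 ratio 0.29 and the median SD 0.21.

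Markers of granulosa-type cells were abundant at both times: 10 of 11 listed were tested, with a summed level of 17.3 to 17.4 at 0 h and 17.1 in each 6 h sample. Of these, 5 fell and 0 rose, with a median log2 ratio of -0.55, and AMHR2 among them was tested only through 0 h. Oocyte markers varied between samples, and 1 of 9 was called: KIT, which had -1.15 ± 0.31 (adjusted p = 0.0047) and entered the test only through 0 h. The summed level of 9 tested oocyte genes of 13 listed was 10.74, 10.64 and 13.58 at 0 h in replicates 1, 2 and 3, and 12.11, 11.25 and 12.40 at 6 h. Their median log2 ratio was therefore 1.74, 0.44 and -1.17 in these replicates, and the 0 h sample of replicate 3 stood apart. DPPA3, GDF9, ZAR1, ZP2, ZP3 and ZP4 among them were tested only through 6 h, so the filter favoured higher values there. The summed level of 6 tested theca and stroma markers of 9 was higher at 6 h in each replicate, with 11.75 to 12.13 at 0 h and 13.33 to 13.47 at 6 h. Of these, 4 rose, DCN among them only through the 6 h side of the filter, while COL1A1 (1.00) and NR2F2 (0.11) did not pass. The untested CYP17A1, INSL3 and COL1A2 had 0.14, -0.10 and -0.48, with -2.38 for COL1A2 in replicate 3. Among 8 blood and immune markers 3 were tested and CD68, a macrophage protein, rose (1.27 ± 0.39, adjusted p = 0.0050), while PTPRC and HBA had -0.03 and -0.02 and did not pass. Of 5 endothelial markers 0 passed the filter. PECAM1 was above background on 0 of 6 arrays at either time, TEK and 1 VWF probe on 5 of 6 at each, CDH5 on 4 and 5, and KDR on 4 and 5, with an untested log2 ratio of 0.69 ± 0.32 for KDR, above 0 on 6 of 6 arrays. What part these cells had in the values below was not tested, apart from the fits without a replicate.

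Of the 5 tested genes, 3 passed the test, against 35.2% of all genes: FOXO1 and INSR fell and PIK3CA rose. The same 3 passed in a fit over all tested probes, in which 32.9% of probes did. The levels of all 5 at 6 h and at 0 h did not overlap, which held for 3948 of the 9180 genes (43.0%). So the receptor at the head of the pathway and the factor at its end had lower transcript levels after 6 h, while the catalytic subunit between them had a higher one. AKT1 and AKT2 had positive ratios that did not pass. With the 6 arrays fitted singly, the replicate as a block and the dye as a term, both also passed, AKT1 at an adjusted p of 0.041 and AKT2 at 0.047. The 35.2% does not belong to that fit, whose share of all genes is not given here, so these calls are a description. AKT1 entered the test only through 6 h, where it was higher, so the filter favoured a rise and its call supports none.

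**Figure D1:**
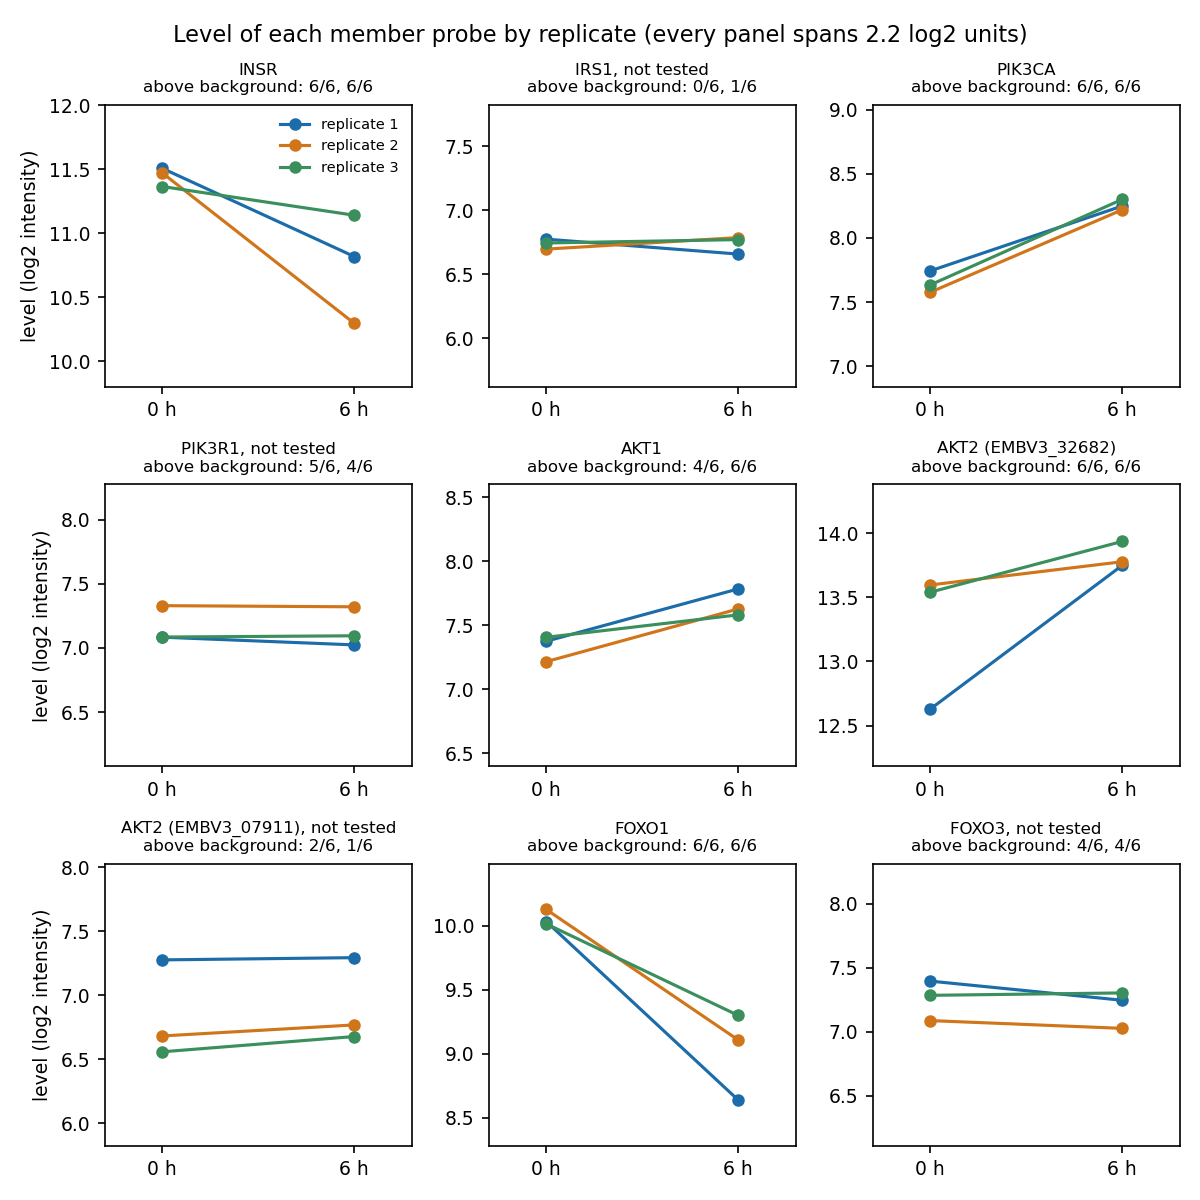
Level (log2 intensity, vertical axis) of each probe of the named genes at 0 h and 6 h, with 1 line per replicate; the counts above each panel are the arrays of 6 on which the probe was above background at 0 h and at 6 h. FOXO1 and INSR go down in all 3 replicates, PIK3CA goes up by a similar amount in each, and AKT2 at its bright probe has its widest gap in replicate 1, whose 0 h sample is low.

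INSR encodes the insulin receptor. At its probe EMBV3_34720 the level was 11.51, 11.47 and 11.37 at 0 h in replicates 1, 2 and 3, and 10.82, 10.30 and 11.14 at 6 h. The 0 h samples lay close together and the 6 h samples were spread, with replicate 2 lowest and replicate 3 nearest to its 0 h sample. The log2 ratio was -0.70 ± 0.47 (1.62-fold lower, adjusted p = 0.043, 95% confidence interval -1.19 to -0.20), and 6 of 6 arrays were below 0. Arrays of a dye swap differed in replicate 1, with -1.11 where the 0 h RNA was in Cy5 and -0.26 where it was in Cy3. The call was close to its threshold: the adjusted p was 0.069 without replicate 1 and 0.161 without replicate 2, where the ratio was -0.46. On the arrays with the 6 h RNA in Cy5 alone the log2 ratio was -0.52 (adjusted p = 0.080). Among the tested genes, 10.0% had a lower ratio than INSR.

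IRS1, the docking protein that INSR phosphorylates, was at the limit of detection. Its probe EMBV3_09737 was above background on 0 of 6 arrays at 0 h and on 1 of 6 at 6 h, with a log2 ratio of -0.000138 that was not tested. Levels at both times lay between 6.66 and 6.79 and overlapped. No fold is given for IRS1.

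The sister receptors, adaptors and inhibitors that surround INSR moved in both directions. Of 25 genes listed, 16 were tested, 2 rose and 2 fell, which is 25% against 35.2% of all genes, with a median log2 ratio of 0.05. IGF1R, the receptor for insulin-like growth factor, rose. Its level was 8.51, 8.62 and 8.14 at 0 h and 8.88, 9.34 and 9.14 at 6 h, without overlap, for a log2 ratio of 0.70 ± 0.32 (adjusted p = 0.020). IGF1R did not pass without replicate 2 or 3 (adjusted p = 0.081 and 0.085). The log2 ratio of INSR minus that of IGF1R was -1.06, -1.89 and -1.22 in replicates 1, 2 and 3. Its mean was -1.39 ± 0.44, with a two-sided exact p of 0.25 by sign flips over replicates, the smallest that 3 replicates allow (0.5 after Benjamini-Hochberg adjustment over 2 such pairs).

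GRB2, the adaptor that links receptors to RAS, rose by 0.73 ± 0.16 (adjusted p = 0.0083). Its other probe had 0.01, was above background on 5 of 6 arrays at each time and was not tested. GRB14, an inhibitor that binds the activated insulin receptor, fell by 1.35 on the log2 scale (-1.35 ± 0.41, adjusted p = 0.0047). Its level was 12.80, 13.14 and 13.24 at 0 h and 11.30, 11.47 and 12.34 at 6 h, and its other probe also fell (-0.57, adjusted p = 0.020 over all probes). GAB1, a docking protein of the same kind as the IRS proteins, fell by 0.99 (-0.99 ± 0.54, adjusted p = 0.021), and its other tested probe gave -0.79 (adjusted p = 0.016 over all probes). So the 2 genes that fell were a brake on INSR and a docking protein. PTPN1, a phosphatase that acts on the receptor, was above background on 5 of 6 arrays at each time and was not tested.

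PIK3CA encodes the alpha catalytic subunit of PI3-kinase, p110 alpha. At EMBV3_24099 the level was 7.74, 7.58 and 7.63 at 0 h and 8.25, 8.22 and 8.30 at 6 h. All 3 samples at 6 h were above all 3 at 0 h, and both times showed little spread. The log2 ratio was 0.61 ± 0.09 (1.52-fold higher, adjusted p = 0.010, 95% confidence interval 0.34 to 0.87), with values above 0 on 6 of 6 arrays and 87.1% of tested genes below it. The probe was dim, with raw intensities of 208 to 313 at 0 h and 309 to 427 at 6 h, and the offset added in background correction narrows ratios of dim probes. With an offset of 0 the log2 ratio was 0.76. The ratio varied little between replicates, yet its call was lost with 2 replicates, at an adjusted p of 0.066 without replicate 2 and 0.059 without replicate 3.

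PIK3R1 encodes p85 alpha, the regulatory subunit that holds p110 and brings it to phosphorylated IRS proteins. Its probe EMBV3_19320 was above background on 5 of 6 arrays at 0 h and 4 of 6 at 6 h, 1 array short of the filter. Levels were 7.08, 7.33 and 7.09 at 0 h and 7.02, 7.32 and 7.10 at 6 h, and they overlapped. The untested log2 ratio was -0.02 ± 0.04.

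Other PI3-kinase subunits and the enzymes that handle their lipids were often too dim to test. Of 21 genes listed, 20 had a probe and 10 were tested, of which 1 rose and 1 fell (20% against 35.2%), with a median log2 ratio of -0.02. The catalytic subunits PIK3CB, PIK3CD and PIK3CG did not pass the filter, with untested log2 ratios of 0.01, -0.06 and -0.09. The gene that fell was PIK3IP1, a membrane protein that binds p110 and inhibits it. Its level was 11.85, 11.44 and 11.61 at 0 h and 10.15, 8.85 and 9.69 at 6 h (log2 ratio -2.07 ± 0.46, 4.21-fold lower, adjusted p = 0.0023). Its other probe, above background on 3 and 2 arrays, had an untested log2 ratio of -0.12. PIK3R4, the regulatory partner of the class III lipid kinase PIK3C3, rose by 0.58 ± 0.28 (adjusted p = 0.028) but not when replicate 2 or 3 was left out (adjusted p = 0.077 and 0.062). PIK3C3 itself had -0.31 ± 0.42 (adjusted p = 0.25). Without replicate 1 the calls on this list were 3, and without replicate 2 or without replicate 3 they were 1, that of PIK3IP1.

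**Figure D2:**
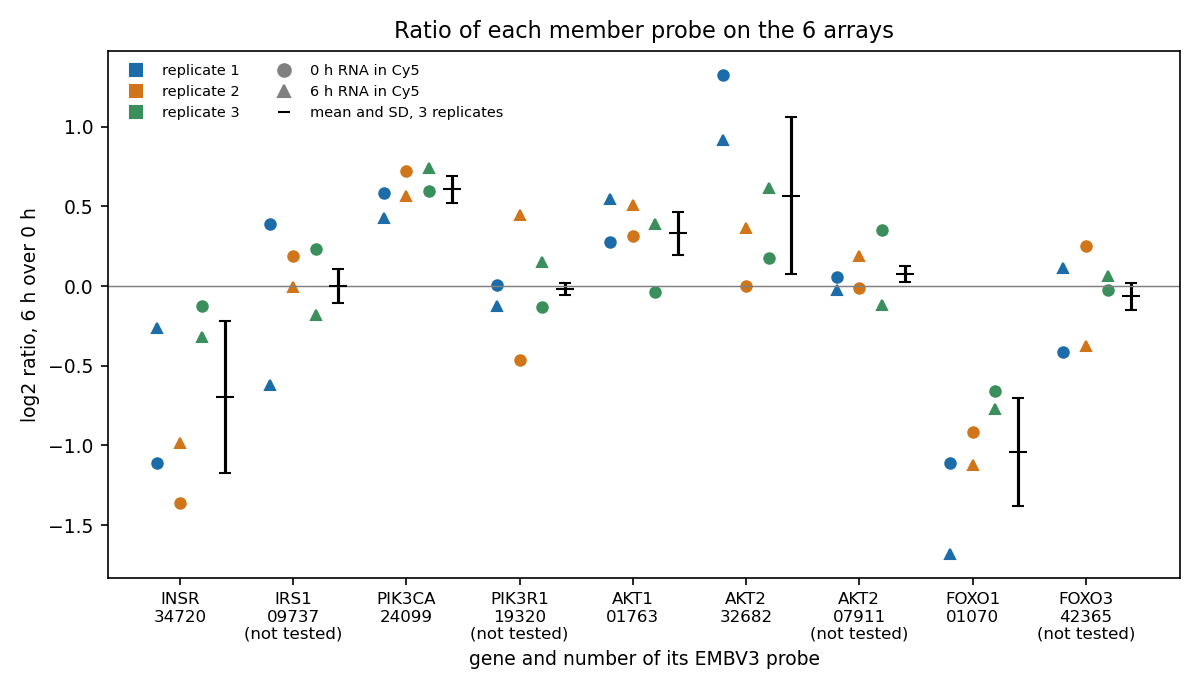
Log2 ratio of 6 h over 0 h (vertical axis) of each probe on the 6 arrays, coloured by replicate, with circles for arrays that held the 0 h RNA in Cy5 and triangles for arrays that held the 6 h RNA in Cy5; black bars are the mean and SD of 3 replicates. FOXO1 and INSR lie below 0 and PIK3CA above 0 on every array, AKT1 and AKT2 lie above 0 on 5 of 6, and the probes that were not tested scatter around 0.

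AKT1 is the isoform most tissues use for growth and survival. Its probe EMBV3_01763 passed the filter only through 6 h, with 4 of 6 arrays above background at 0 h and 6 of 6 at 6 h, so a lower 0 h level helped to select it. The level was 7.38, 7.22 and 7.41 at 0 h and 7.78, 7.63 and 7.58 at 6 h. The samples did not overlap, though replicate 3 at 6 h lay only a little above the highest 0 h sample. The log2 ratio was 0.33 ± 0.14 (adjusted p = 0.069, 95% confidence interval 0.05 to 0.61), with 5 of 6 arrays above 0. It depended on the dye: 0.18 on the arrays with the 0 h RNA in Cy5 (adjusted p = 0.35) against 0.48 on the others (adjusted p = 0.039). Both arrays that were not above background at 0 h held that RNA in Cy5, in replicates 1 and 2.

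AKT2 is the isoform that insulin uses to drive glucose uptake in muscle and fat. At its bright probe EMBV3_32682 the level was 12.63, 13.60 and 13.54 at 0 h and 13.75, 13.78 and 13.94 at 6 h. The 6 h samples were alike, and the 0 h sample of replicate 1 was lower than the other two by about 1 log2 unit. The log2 ratios were therefore 1.12, 0.18 and 0.40 in replicates 1, 2 and 3, and their mean of 0.57 ± 0.49 did not pass (adjusted p = 0.082, 95% confidence interval 0.06 to 1.07). Without replicate 1 the log2 ratio was 0.29 (adjusted p = 0.15). On the arrays with the 6 h RNA in Cy5 it was 0.63 (adjusted p = 0.029), and on those with the 0 h RNA in Cy5 it was 0.50 (adjusted p = 0.20). The second AKT2 probe, EMBV3_07911, was above background on 2 of 6 arrays at 0 h and 1 of 6 at 6 h and had an untested log2 ratio of 0.07, with a level range of 6.56 to 7.29 that overlapped between the times. The log2 ratio of AKT2 minus that of AKT1 was 0.71, -0.23 and 0.22 in the 3 replicates, with a mean of 0.23 ± 0.47 and no common sign. The two-sided exact p was 0.75, also after adjustment over both pairs, but 3 replicates cannot give a p under 0.25, so this test could not tell the isoforms apart at any size of difference.

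Several genes around AKT passed the test. Of 24 listed kinases, phosphatases, inhibitors and substrates, 17 were tested, 5 rose and 3 fell (47.1% against 35.2%), with a median log2 ratio of 0.05. Without replicate 2 the count fell from 8 to 5, where the count over all genes fell too, as given above. The tribbles pseudokinases, which bind AKT and other kinases, went in opposite directions. TRIB1 had levels of 9.57, 9.78 and 11.29 at 0 h and 11.71, 11.87 and 12.49 at 6 h, and rose by 1.81 ± 0.53 (3.51-fold, adjusted p = 0.0038). Its other probes were dim, with untested ratios of -0.06 and -0.01. TRIB2 had levels of 14.98, 15.04 and 15.08 at 0 h and 13.22, 12.24 and 13.28 at 6 h. It fell by 2.12 on the log2 scale (-2.12 ± 0.59, 4.35-fold lower, adjusted p = 0.0033), and its other probes gave -2.16 and -0.70, both past the test over all probes, the latter tested only through 0 h (5 of 6 arrays at 6 h). TRIB3 (0.90 ± 0.32, adjusted p = 0.0093) was also called higher and is named after its value was seen. It entered the test only through 6 h, with 3 of 6 arrays above background at 0 h, so the filter favoured that direction.

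The SGK kinases, relatives of AKT that also act downstream of PI3-kinase, divided too. SGK1 rose from levels of 7.51, 7.51 and 7.75 to 8.85, 9.19 and 8.93, by 1.40 ± 0.26 (2.63-fold, adjusted p = 0.0025). SGK3 fell by 0.72 (-0.72 ± 0.29, adjusted p = 0.016), a call lost without replicate 2 (adjusted p = 0.067). It entered the test only through 0 h, with 5 of 6 arrays above background at 6 h, so the filter favoured a fall. WNK1, a kinase of ion transport that AKT and SGK1 phosphorylate, rose by 1.43 ± 0.27 (2.70-fold, adjusted p = 0.0024). PFKFB2, an AKT substrate that controls glycolysis, fell by 0.46 (-0.46 ± 0.23, adjusted p = 0.043), but not when replicate 2 or 3 was left out (adjusted p = 0.219 and 0.162). FKBP5, a scaffold that brings a phosphatase to AKT, had 0.50 ± 0.18 (adjusted p = 0.026) and lost its call without any 1 of the replicates (adjusted p from 0.055 to 0.087); it too is named after its value was seen. PDPK1, the kinase that activates AKT at the membrane, had -0.12 ± 0.16 and did not pass (adjusted p = 0.46). The complex that AKT inhibits on the way to mTOR also showed small ratios that did not pass, with TSC1 at -0.01 and TSC2 at 0.08.

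FOXO1, a factor of the FOXO family that AKT restrains and a known regulator of granulosa cell metabolism and survival, had the lowest ratio of the tested genes of this pathway core. At EMBV3_01070 the level was 10.03, 10.13 and 10.02 at 0 h and 8.64, 9.11 and 9.30 at 6 h. The 0 h samples were nearly equal, and each 6 h sample lay well below them, replicate 1 lowest. The log2 ratio was -1.39, -1.02 and -0.71 in replicates 1, 2 and 3, with a mean of -1.04 ± 0.34 (2.06-fold lower, adjusted p = 0.0070, 95% confidence interval -1.44 to -0.65). All 6 arrays were below 0, from -1.68 to -0.66, and raw intensities went from 887 to 1344 at 0 h to 376 to 818 at 6 h. Among tested genes, 4.67% had a lower ratio. FOXO1 passed under each of 19 alternatives, which count the authors' identical matrix and value table separately, with ratios of -1.21 to -0.87. Without replicate 1 it was -0.87 (adjusted p = 0.0070), and without replicate 3, the replicate with most oocyte signal at 0 h, it was -1.21 (adjusted p = 0.016). The replicates with the higher oocyte ratios had the lower FOXO1 ratios, which over 3 replicates was not tested.

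FOXO3, the family member best known for restraining primordial follicles in mice, was near background. Its probe EMBV3_42365 was above it on 4 of 6 arrays at each time, with levels of 7.40, 7.09 and 7.29 at 0 h and 7.25, 7.03 and 7.30 at 6 h. These overlapped, and the untested log2 ratio was -0.06 ± 0.08. A comparison of FOXO3 with FOXO1 was therefore not made.

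**Figure D3:**
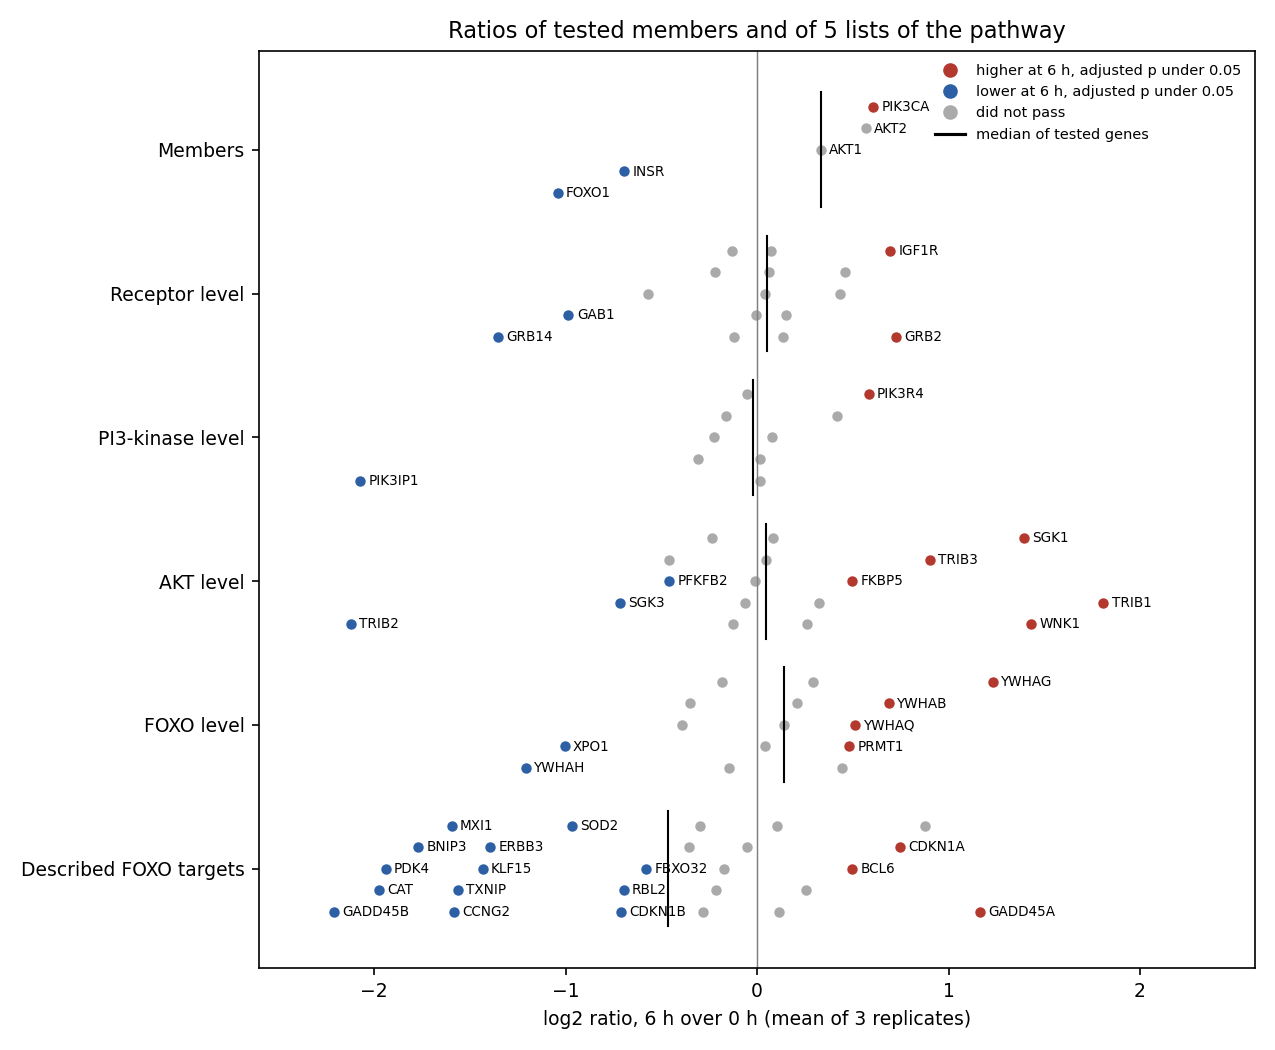
Log2 ratio of 6 h over 0 h (horizontal axis, mean of 3 replicates) of the 5 tested core genes and of 5 lists of genes around them, with called genes in red or blue and named, the others in grey; the vertical stroke is each list's median and the height within a list carries no meaning. Most named FOXO targets lie to the left of 0, with a list median of -0.47, while the medians of the other 4 lists lie between -0.02 and 0.14. The lists were chosen with earlier results of these data known.

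The proteins that hold, modify or export FOXO factors gave 4 genes that rose and 2 that fell of 15 tested and 19 listed (40% against 35.2%), with a median log2 ratio of 0.14. Without replicate 1 the count was 9, and without replicate 2 or 3 it was 4. Over all genes the count hardly changed without replicate 1 (3211 against 3235) and fell without replicate 2 or 3, as given above. The genes of the 14-3-3 proteins, which bind phosphorylated FOXO in the cytoplasm, went in both directions or did not pass. YWHAG rose from levels of 9.05, 9.21 and 9.12 to 10.12, 10.87 and 10.09, by 1.23 ± 0.37 (2.35-fold, adjusted p = 0.0052). YWHAB rose by 0.69 ± 0.06 (adjusted p = 0.0068), although on the arrays with the 0 h RNA in Cy5 alone it had 0.28 (adjusted p = 0.14). YWHAQ rose by 0.51 ± 0.17 (adjusted p = 0.023), a call lost when replicate 2 or 3 was left out (adjusted p = 0.143 and 0.071). YWHAH went the other way, from levels of 10.43, 11.48 and 11.01 to 9.56, 10.20 and 9.54 (-1.21 ± 0.30, 2.31-fold lower, adjusted p = 0.0040). YWHAE, YWHAZ and SFN, at 0.14, 0.44 and 0.04, did not pass. XPO1, the exportin that carries FOXO out of the nucleus, fell by 1.01 (-1.01 ± 0.29, adjusted p = 0.0062) at its brightest probe, while other probes had -0.30 and -0.25 and did not pass over all probes. The deacetylases SIRT1 and SIRT2 had -0.18 and 0.21 and did not pass. PRMT1, a methyltransferase that modifies FOXO1, had 0.48 ± 0.06 (adjusted p = 0.019), lost without replicate 2 (adjusted p = 0.110) or 3 (adjusted p = 0.072), and is named after its value was seen. Its other tested probe had 0.13 and did not pass over all probes (adjusted p = 0.37).

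Among genes described elsewhere as direct FOXO targets, more fell than rose. All 32 listed had a probe and 26 were tested, of which 13 fell and 3 rose (61.5% called against 35.2%, with 18.0% of all genes lower and 17.2% higher). Their median log2 ratio was -0.47 against -0.02 over all tested genes, and it was -0.47, -0.66 and -0.38 in replicates 1, 2 and 3. This list, like the others, was chosen with earlier results of these data known, so its share and median are given as a description. The granulosa-type markers given above had a median of -0.55 in the same samples, and whether the lists share a source was not tested. Leaving out 1 replicate gave 12 to 17 calls, of which 11 to 13 were lower and 1 to 4 higher. The count over all genes also changed with the replicate left out, so these counts are no property of the list alone. GADD45B, a stress-induced regulator of growth arrest, had levels of 14.27, 13.34 and 13.34 at 0 h and 11.65, 11.34 and 11.33 at 6 h, and fell by 2.21 (-2.21 ± 0.35, 4.64-fold lower, adjusted p = 0.0015). CAT, the catalase that breaks down hydrogen peroxide, went from 13.68, 13.58 and 13.59 to 11.66, 11.34 and 11.93 (-1.98 ± 0.29, 3.93-fold lower, adjusted p = 0.0016). PDK4, which closes the entry of pyruvate into mitochondrial oxidation, went from 10.24, 10.74 and 9.58 to 8.12, 8.36 and 8.25 (-1.94 ± 0.54, 3.84-fold lower, adjusted p = 0.0034). A further PDK4 probe gave -0.54 and was tested only through 0 h, with 4 of 6 arrays above background at 6 h, so it adds no support. In all 3 genes the samples of the 2 times were far apart.

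The other 10 that fell are named after their values were seen. Regulators of the cell cycle were CDKN1B, an inhibitor of cyclin-dependent kinases (-0.71), the cyclin CCNG2 (-1.58), the pocket protein RBL2 (-0.70) and the MYC antagonist MXI1 (-1.60). Genes of oxidative stress and metabolism were the mitochondrial superoxide dismutase SOD2 (-0.97 ± 0.04), the thioredoxin inhibitor TXNIP (-1.56), and KLF15, a transcription factor of fasting metabolism (-1.43). BNIP3, which acts in mitophagy (-1.77), ERBB3, a receptor of the EGF receptor family (-1.40), and FBXO32, a ubiquitin ligase of muscle atrophy (-0.58), made up the rest. FBXO32 did not pass without replicate 2 or 3 (adjusted p = 0.185 and 0.178), nor RBL2 without replicate 2 (adjusted p = 0.077). FBXO32 was tested only through 0 h, with 5 of 6 arrays above background at 6 h, which favoured a fall.

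The 3 targets that rose were GADD45A, a DNA damage response gene and relative of GADD45B (1.17 ± 0.75, adjusted p = 0.029), the cell cycle inhibitor CDKN1A (0.75 ± 0.33, adjusted p = 0.017) and the transcriptional repressor BCL6 (0.50 ± 0.29, adjusted p = 0.046). GADD45A had levels of 10.91, 11.13 and 10.47 at 0 h and 11.86, 11.68 and 12.47 at 6 h, highest where its 0 h sample was lowest. CDKN1A did not pass when replicate 2 or 3 was left out (adjusted p = 0.053 and 0.062), nor did BCL6 (adjusted p = 0.225 and 0.118). BCL6 lost its call in 9 of 19 alternatives, among them no background correction and plain background subtraction (adjusted p = 0.074 and 0.055). GADD45A lost its call in 1 of 19 (adjusted p = 0.061). The pro-apoptotic BCL2L11 was split between replicates at 0.32, -0.73 and 0.71 and did not pass (adjusted p = 0.82). Of the gluconeogenic targets, PCK1 had 0.11 and did not pass (adjusted p = 0.44), and G6PC1 was not tested, nor was IGFBP1, a binding protein of insulin-like growth factors. This list holds genes that many other factors also control, and FOXO binding was not measured here. Over all 5 lists, 84 of 121 genes were tested, 15 rose and 21 fell (42.9% against 35.2%), and the median log2 ratio was -0.05.

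The genes whose ratios over the 6 arrays lay closest to those of PIK3CA, by Euclidean distance among 9179 other genes, were TMX3 (distance 0.13, log2 ratio 0.60), an endoplasmic reticulum oxidoreductase, ADGRE5 (0.20, log2 ratio 0.67), an adhesion receptor, and CDV3 (0.24, log2 ratio 0.56). Closest to FOXO1 were SYF2 (0.34, log2 ratio -1.09), a splicing factor, FMC1 (0.35, log2 ratio -0.99), an assembly factor of the mitochondrial ATP synthase, and POLR1D (0.35, log2 ratio -0.98), a subunit of RNA polymerases I and III. These are likenesses over 6 arrays of 3 replicates and are given as a description.

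**Figure D4:**
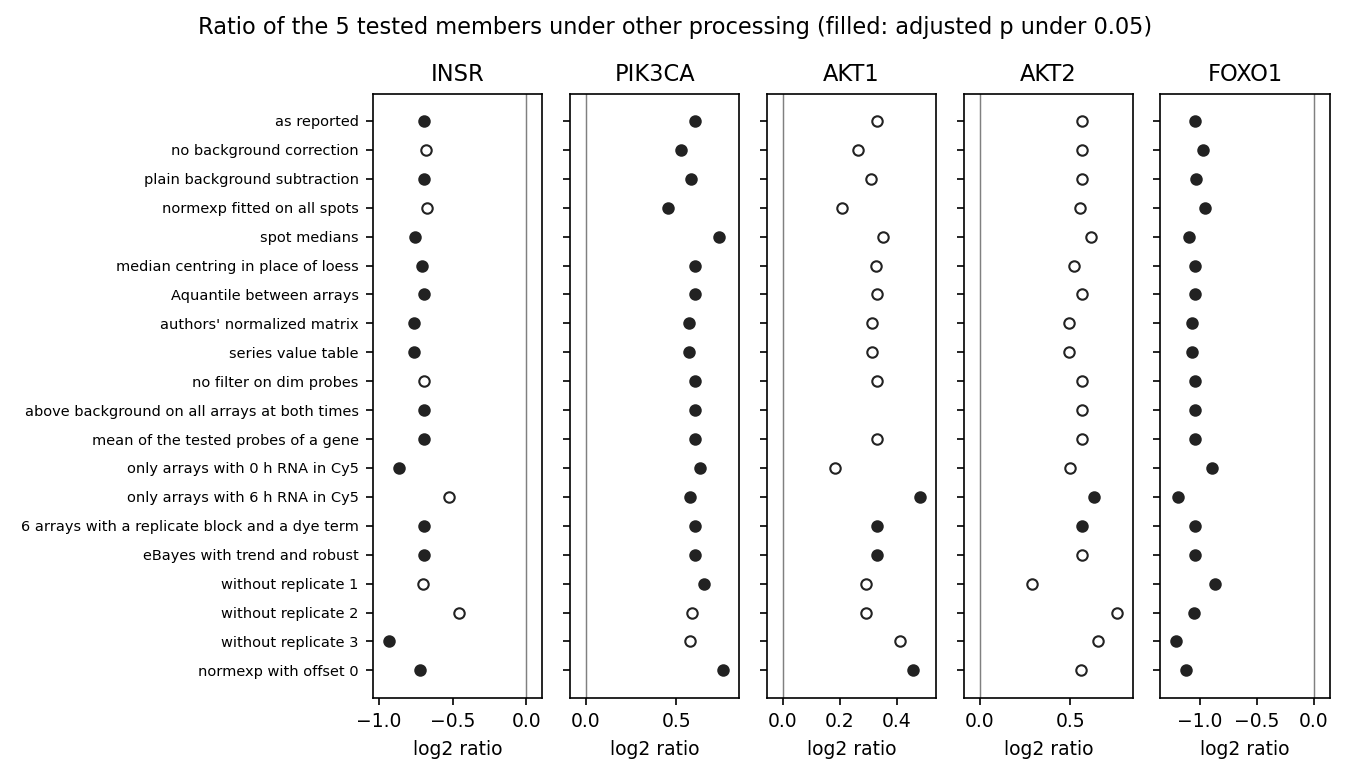
Log2 ratio of 6 h over 0 h (horizontal axis) of the 5 tested core genes under each way of processing (rows), with filled points where the adjusted p was under 0.05 and open points where it was not; AKT1 has no point where both times had to be above background. FOXO1 is filled in every row, PIK3CA in all but those without replicate 2 and without replicate 3, INSR is open in 6 rows, and no gene crosses 0.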

How the data were processed

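The authors deposited the raw mean and median intensity of each spot in Cy3 and Cy5 with its local background, not normalized, per the file headers. They also deposited a matrix of log2 ratios, identical to the value table of the series. Set against the scanner values, the matrix was Cy5 over Cy3 (r = 0.980 to 0.990 per array, medians -0.0186 to 0.00676). No label or header records how it was corrected and normalized. According to the labels' protocols, RNA was amplified with T7 polymerase and labelled chemically.

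Spot means were corrected with normexp (offset 50, fitted on spots not marked as ignored, of which each array had 11 to 69) and normalized by loess within arrays, with control and ignored spots at weight 0. Ratios were turned to 6 h over 0 h from the labelled dyes, and dye swaps were averaged (n = 3). The filter used 153 negative control spots per array. Median raw intensity was 208 to 264 in Cy3 and 169 to 212 in Cy5, against negative control means of 158 to 203 and 123 to 176, so that 41.2% to 84.3% of probes were above background per array and time. The number of arrays limits the precision. limma 3.58.1 (lmFit and eBayes, two-sided) in R 4.3.3 tested 9180 genes, with Benjamini-Hochberg adjustment over all of them. A second fit tested all 20727 probes that passed the filter (6824 called). Levels are log2 intensities scaled by Aquantile after loess. Every array held both times of 1 replicate, so the pairing lies in the array. Across genes, r was 0.83, 0.86 and 0.89 within dye swaps and 0.75 to 0.87 between replicates.

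Of 43794 probes, 21790 had 1 gene symbol in the platform annotation, which is old, and the others are unnamed here. Of the symbols, 14114 were current in RefSeq's ARS-UCD2.0 gene table, 982 were updated and 133 kept. In all, 2049 genes had several tested probes. No sequence or coordinate was used. Surrounding genes were named by rule: of each list, up to 3 called genes with the highest and up to 3 with the lowest ratio among those with 1 sign in all replicates, and the 3 genes nearest to the core genes with the highest and lowest ratio. Others are said to be named after their values were seen. The core genes and all lists were chosen with earlier results of these data known. Alternatives covered background correction, spot summary, normalization, the authors' values, filter, probe choice, dye, block, prior and each replicate. Normexp with an offset of 0 was added after seeing the data. The procedure was tested on simulated data.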

Additional observations from a re-analysis of the deposited data

How the results depend on the processing

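No alternative reversed the direction of any of the 47 genes compared. These were the tested core genes, the called genes of the 5 lists and the genes nearest to PIK3CA and FOXO1. Other genes named here were not compared. Where a gene had 1 sign in all replicates, leaving 1 replicate out could not reverse it, so those fits were no test of direction. Of 889 comparisons, 820 kept direction and side of the threshold, 63 lost the call and 6 gained it. The authors' matrix and the identical value table were counted separately. Among the core genes FOXO1 passed in 19 of 19 alternatives, PIK3CA in 17 of 19, INSR in 13 of 19, AKT2 in 2 of 19 and AKT1 in 4 of 18. INSR also lost its call with no background correction, with normexp fitted on all spots and when dim probes were kept (adjusted p = 0.052, 0.054 and 0.077). With the replicate block and the dye term, AKT1 and AKT2 passed as well as FOXO1, INSR and PIK3CA. The share of all genes called in that fit is not given here, so these calls are a description. AKT1 entered the test only through 6 h, so its call supports no rise. Leaving out 1 replicate gave 1 to 2 called core genes, 1679 to 3211 called genes over all and 25 to 42 called genes in the 5 lists. The cause of these losses was not tested. When dim probes were kept, IRS1, PIK3R1 and FOXO3 had adjusted p of 0.999, 0.905 and 0.681. IRS1, PIK3R1, FOXO3 and the dim AKT2 probe did not pass the filter and were not tested, and ratios of dim probes are narrowed, which limits what can be said of them.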
